A study of Mus musculus with 3 samples.

Results

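Pachytene spermatocytes of the mouse testis were taken by a gate on Piwil1, and 591 of 4739 barcodes kept from 3 single-cell libraries were members. A barcode was kept with at least 8000 UMIs (unique molecular identifiers, 1 per captured mRNA molecule), over 500 genes and under 10% of UMIs from mitochondrial genes. A member held at least 3 Piwil1 UMIs that made up at least 0.01% of its UMIs. It held under 0.03% of UMIs in Ccna1 and Cdc20 together, under 0.03% in Dazl and under 1% in Prm1, Prm2, Tnp1 and Tnp2 together. Members were thus selected on the measured levels of these genes and of the mitochondrial genes, whose values are given as description only.

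The study profiled dissociated adult testes by droplet single-cell RNA-seq of the 3' ends of transcripts, in C57BL/6 mice labelled as 8 weeks old, for which the study's methods give a wider range of ages. There was 1 library of wild type (WT), 1 of mice without the helicase gene Ddx25, whose protein is also called GRTH (KO), and 1 of mice with a human GRTH gene carrying the R242H change, which lack the phosphorylated cytoplasmic form (KI). The study's methods describe each library as pooled from 2 mice, whereas the labels speak of single animals, so animals could not be told apart and no spread between mice was measured. With 1 library per genotype no test was possible: values are CPM, the UMIs summed over members and scaled to a common total, and every 95% interval covers counting error only. Where 3 values stand together without labels, they belong to WT, then KO, then KI. Genotype cannot be told apart from library, digestion and pool of mice.

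In the pachytene stage of meiosis, homologous chromosomes are fully paired along the synaptonemal complex and exchange DNA, while the X and Y are packed into the sex body and their genes are silenced. The cells transcribe at a high rate and store many mRNAs that are translated only later, in spermatids. Piwil1 (MIWI) binds piRNAs at this stage, and Ddx25 is a germ cell RNA helicase of the chromatoid body that carries mRNAs from the nucleus and acts in their translation.

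Because Piwil1 chose the cells, its upstream sequence in RefSeq is shown, beside those of Ldhc, Meig1 and Ubb, which are the 3 of the 4 genes of highest level that matched a RefSeq window. Each line gives the 250 bases before the start of transcription in GRCm38.p6, 5′ to 3′ on the gene's strand, which is the minus strand for Meig1 and the plus strand for the others. Capitals mark the MYB core GNCAGTT and the CRE motif TGACGT on either strand. The windows lie at chr5:128735996-128736245 for Piwil1, chr7:46861013-46861262 for Ldhc, chr2:3422649-3422898 for Meig1 and chr11:62550921-62551170 for Ubb.
Piwil1: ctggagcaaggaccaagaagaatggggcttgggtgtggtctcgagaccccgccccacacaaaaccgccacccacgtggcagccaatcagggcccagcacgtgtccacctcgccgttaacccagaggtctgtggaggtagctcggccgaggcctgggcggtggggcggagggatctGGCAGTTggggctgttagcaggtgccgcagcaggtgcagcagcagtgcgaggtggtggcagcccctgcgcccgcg
Ldhc: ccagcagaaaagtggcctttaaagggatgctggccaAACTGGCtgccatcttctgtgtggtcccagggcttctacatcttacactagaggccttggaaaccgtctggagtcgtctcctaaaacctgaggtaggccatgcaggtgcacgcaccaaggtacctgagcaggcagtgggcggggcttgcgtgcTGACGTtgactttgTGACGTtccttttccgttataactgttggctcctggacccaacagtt
Meig1: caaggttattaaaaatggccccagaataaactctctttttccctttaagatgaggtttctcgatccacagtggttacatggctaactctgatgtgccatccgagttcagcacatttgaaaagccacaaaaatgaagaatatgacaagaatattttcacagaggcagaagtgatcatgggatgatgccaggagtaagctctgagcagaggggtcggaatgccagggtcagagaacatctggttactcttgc
Ubb: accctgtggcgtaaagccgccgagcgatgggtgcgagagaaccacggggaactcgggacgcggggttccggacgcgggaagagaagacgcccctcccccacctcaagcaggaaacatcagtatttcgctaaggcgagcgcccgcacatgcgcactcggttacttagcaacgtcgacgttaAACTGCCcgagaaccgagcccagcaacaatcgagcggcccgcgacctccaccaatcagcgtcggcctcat

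The MYB core began 75 bases before the start in Piwil1, 214 bases before it in Ldhc and 70 bases before it in Ubb, and Ldhc also held CRE motifs at 61 and 47 bases before its start. Meig1 held none of the motifs searched. MYB cores are letters that Mybl1, the meiotic MYB factor, can bind, and CRE motifs are letters that CREM, a factor of spermatocytes and spermatids, can bind. Motifs were counted in the whole RefSeq window, which also holds the 50 bases after the start. Of the 20 highest genes, 12 matched a window; 4 of these held a MYB core, in Gstm5 only after the start, and 2 a CRE motif. Over all 27025 windows, 12.9% held a MYB core, 7.64% a CRE motif and 4.46% the X-box motif GTTGCCA, which none of the 12 held. Of the 3847 genes of at least 50 CPM, 3033 matched, with a MYB core in 13.6% and a CRE motif in 13.7%. A MYB core and an X-box motif shared bases in 36 windows. A match of letters does not show that a factor is bound.

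In WT, 189 of 2286 kept barcodes were members (8.27%, exact 95% interval 7.17 to 9.47). KO had 274 members of 1595 (17.2%, 15.4 to 19.1), and KI had 128 of 858 (14.9%, 12.6 to 17.5). The share was lowest in WT, and the KO and KI intervals overlapped. More of these cells and fewer of the others cannot be told apart in such percentages. Summed over members there were 6410492 (WT), 10099638 (KO) and 10062038 (KI) UMIs. The median member had 30774, 33283 and 75562.5 UMIs, from 6041, 6212 and 7866.5 genes. KI members were thus the deepest sequenced, and shares of cells with a UMI are not compared between genotypes.

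The limit on Ccna1 and Cdc20 took most cells out of the gate. It removed 167, 287 and 125 of the 403, 582 and 269 barcodes that met the Piwil1 minimum. The last WT member inside it held 0.0299% and the first barcode outside 0.0304%. In KO and KI the nearest values on both sides rounded to 0.03%. For Piwil1 the lowest members held 0.0147%, 0.0120% and 0.0129%, and the highest barcodes outside just under 0.01%, 0.00949% and 0.00905%. For Dazl the highest members held 0.0299%, 0.0295% and 0.0256%, and the next barcodes outside 0.0322%, 0.0310% and 0.0303%. For the protamine and transition protein genes these were 0.910%, 0.492% and 0.249% inside and 1.29%, 1.12% and 5.29% outside. Near the Ccna1 and Cdc20 limit, 44, 78 and 32 members held at least 0.025%, and 26, 46 and 17 barcodes outside held up to 0.035%. Near the Piwil1 minimum, 1, 5 and 2 members held under 0.015%. Outside it, with the other limits met, 42, 12 and 7 barcodes held 0.005% or more of Piwil1, most of them in WT, and 12, 7 and 2 passed 0.01% on only 1 or 2 UMIs.

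No member barcode was a member of another library, and 1 kept barcode was shared between WT and KI. Member barcodes also held UMIs in the other libraries, equal to 0.355% to 0.438% of their own total. Doublets were not removed.

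The label was checked on 16 markers of pachytene spermatocytes other than Piwil1. All 16 were detected in each library, and 15 had a mean of at least 50 CPM. They summed to 17679, 18685 and 18696 CPM in the members, 14543, 16226 and 14960 in the Dazl-high cells and 17778, 19030 and 18753 in the later spermatocytes, which are gates described below. The list thus did not separate the members from the later spermatocytes. Rsph1, a radial spoke protein of the sperm tail, was at 2807, 3285 and 3304 CPM, and Calm2, a calmodulin gene, at 2453, 2320 and 2323. Piwil1, which chose the cells and checks nothing, was at 818, 628 and 723 CPM, with medians over cells of 761, 605 and 696. The one marker under 50 CPM was Spag6, at 12.6, 10.8 and 1.79 CPM, which reached 273, 358 and 373 in the spermatid gate described below.

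Most genes of earlier stages were low, and some that mark them were near 0. Stra8, which starts meiosis, was at 0, 0.099 and 0.0994 CPM. Kit, a receptor of differentiating spermatogonia, was at 0.468, 0.693 and 1.39 CPM, and Prdm9, which sets the sites of meiotic breaks, at 0.468, 0.198 and 0.199. Dmc1, the meiotic recombinase of early prophase, was at 1.25, 1.09 and 1.09 CPM. Of 12 spermatogonial genes only Id4 reached 50 CPM, and of 14 genes of leptotene and zygotene only Mns1, Tex101 and Meioc did. Id4 was at 131, 113 and 132 CPM. Mns1, a protein of the sperm tail, was at 575, 666 and 733 CPM, Tex101 at 502, 369 and 367, and Meioc, which sustains meiotic prophase, at 204, 218 and 236. The other genes of both lists lay under 50 CPM.

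Somatic cells left few UMIs in the members. The 14 Sertoli cell genes summed to 41.3, 111 and 45.4 CPM, with Trf at 0 in each library. The 9 Leydig cell genes summed to 13.6, 13.8 and 56.4 CPM, and Insl3, the Leydig cell hormone, was at 0, 0.099 and 9.64 CPM. Myoid and stromal genes summed to 4.68, 2.77 and 4.07 CPM, macrophage genes to 2.18, 2.57 and 4.77, and red blood cell genes to 0.312, 0.396 and 0.199. KO was highest for Sertoli cell genes and KI for Leydig cell genes. Members with at least 0.05% of UMIs in the somatic lists numbered 4, 14 and 3, and 1 KI member reached 2.14%. At least 0.1% of UMIs in 15 round spermatid genes was held by 4 WT, 11 KO and 0 KI members.

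To place the members in the course of meiosis, they were set beside 3 other gates that share the limits on depth and protamines. Dazl-high cells (36 WT, 36 KO and 30 KI) met the Piwil1 minimum and had Dazl, a gene of early germ cells, at or above its limit. Cells that met the Piwil1 minimum, had Dazl under its limit and had Ccna1 and Cdc20 at or above theirs (152, 268 and 110) are called later spermatocytes by rule, since both genes act in the meiotic divisions. The share of Ccna1 and Cdc20 did not climb at each gate, however. Its median was 0.0222%, 0.0310% and 0.0297% of UMIs in Dazl-high cells and 0.0189%, 0.0209% and 0.0200% in members. The spermatid gate (549, 386 and 264 cells) held at least 0.05% of UMIs in the acrosome genes Acrv1 and Spaca1 and less than 0.01% in Piwil1. Every gate is a cut on measured values, so the order below is a description with no test.

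Genes of the synaptonemal complex and chromosome axis were mostly lower in the members than in Dazl-high cells. Of 13 that reached 50 CPM in either gate, 10 were at least 1.5-fold lower in all 3 libraries and 1 at least 1.5-fold higher, against 27.6% and 18.5% of the 4869 genes that did so. Sycp1, the transverse filament protein, was at 2108, 1736 and 1944 CPM in the Dazl-high cells. It was at 402, 333 and 378 CPM in the members and 141, 163 and 167 in the later spermatocytes. Hormad1, which coats unpaired axes, went from 1593, 1443 and 1452 CPM to 321, 293 and 319 and then to 203, 228 and 230. Both were lower at each step in each genotype. The gene on the higher side was Syce1, a central element protein, at 222, 330 and 270 CPM in Dazl-high cells, 510, 545 and 549 in members and 594, 633 and 658 in later spermatocytes.

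Of 12 acrosome genes, 9 were at least 1.5-fold higher in members than in Dazl-high cells in all 3 libraries and 1 lower. Of 65 axoneme genes 30 were higher and 4 lower. Over all 4869 genes, 18.5% were higher and 27.6% lower. Ldhc, the lactate dehydrogenase of germ cells, had the highest level of all genes outside the mitochondrial genome, at 6946, 7189 and 7148 CPM, against 1964, 3233 and 2535 in Dazl-high cells. Ppp3r2, the testis form of the calcineurin regulatory subunit, was at 84.2, 189 and 143 CPM in Dazl-high cells and 1014, 1045 and 996 in members. Spink2, a protease inhibitor of the acrosome, was at 203, 423 and 284 CPM and then 1431, 1423 and 1384. Tdrd6, a scaffold of the chromatoid body, was at 59.2, 88 and 82.2 CPM and then 323, 335 and 353. Later spermatocytes had more Ppp3r2, at 1754, 1631 and 1652 CPM, and about as much Tdrd6, at 307, 333 and 347. Calm2 was at 80.6, 99.4 and 70.1 CPM in the spermatid gate, far under its level in the members.

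**Figure D1:**
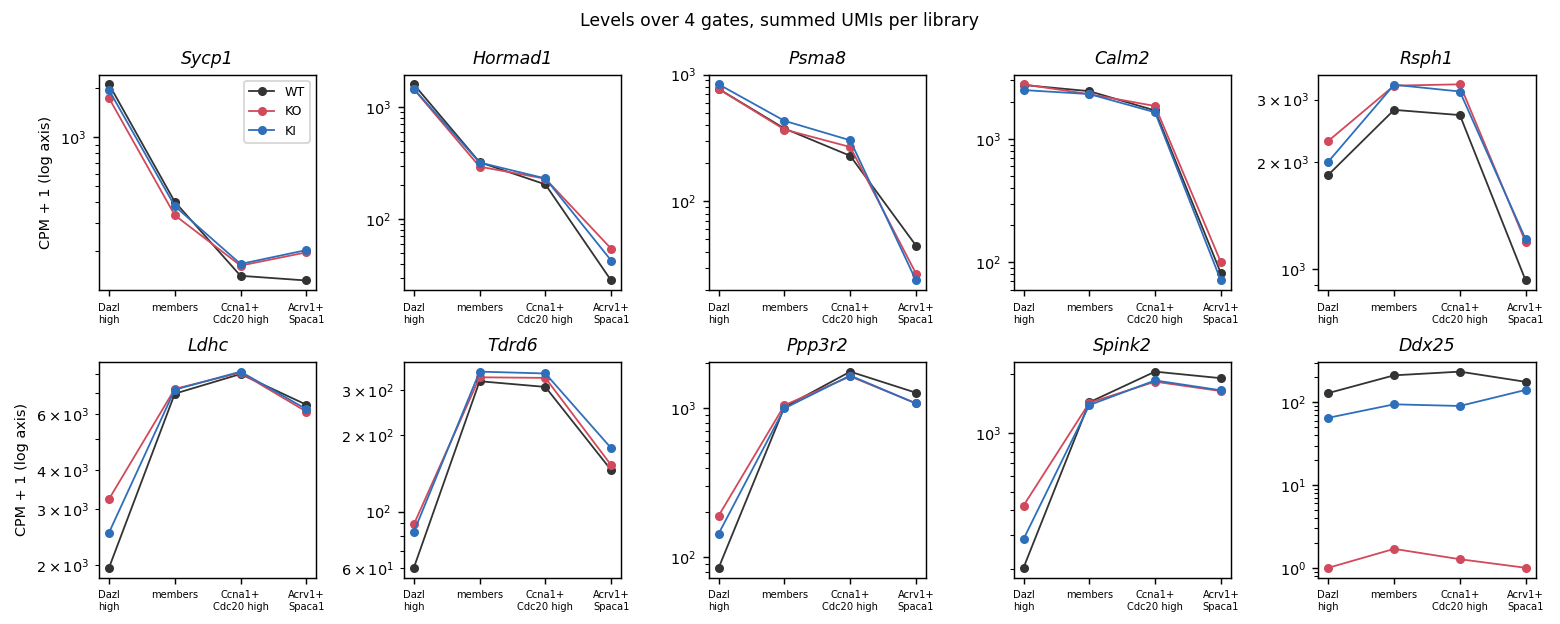
CPM plus 1 (log axis) of 10 genes over the Dazl-high gate, the members, the Ccna1 and Cdc20-high gate and the Acrv1 and Spaca1 gate, with 1 point per library (WT black, KO red, KI blue). The 3 lines nearly coincide for most genes, while Ddx25 lies near the bottom of its panel in KO and under WT in KI.

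The 20 genes of highest level in the members had varied roles. Meig1, needed to build the manchette and tail, was at 5462, 6017 and 5510 CPM. Hsp90aa1, a chaperone, was at 4846, 5182 and 5367 CPM, and Ubb, a polyubiquitin gene, at 4241, 4306 and 4323. Pabpc1, a poly(A)-binding protein, was at 3284, 3154 and 3469 CPM, and the cold shock proteins Ybx3 and Ybx1, which bind stored mRNAs, at 3003, 3180 and 3214 and at 2912, 2978 and 2908. Lyar was at 3670, 3728 and 3888 CPM, Cox8c, a testis subunit of cytochrome oxidase, at 3847, 3677 and 3494, Rbakdn at 3384, 3715 and 3449 and Gstm5, a glutathione transferase, at 3434, 3264 and 3031. All 20 of the highest genes differed by less than 1.5-fold between either mutant and WT, with log2 ratios no farther from 0 than that of Fabp9, a lipid-binding protein of germ cells, at 0.28 in KO and 0.26 in KI. Levels of different genes in 3' counts are not corrected for how well each transcript is captured.

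Some genes were highest in the members themselves. Fbn2, a fibrillin of the matrix, was at 158, 156 and 192 CPM in members, against 48.9, 40.7 and 68.6 in Dazl-high cells and 63, 75.4 and 81 in later spermatocytes. Mgll, a lipase of monoacylglycerols, was at 461, 449 and 508 CPM in members and at 248.7, 292 and 271 in later spermatocytes. Macrod2, which removes ADP-ribose from proteins, was at 1207, 1153 and 1326 CPM, with 527, 417 and 416 before and 688, 758 and 793 after. Cbx7, a Polycomb protein, was at 90.5, 86.5 and 94.1 CPM, with 45.5, 49.5 and 48.3 before and 36, 48.2 and 42.8 after. By the smallest of the 3 libraries, Fbn2 led the next gate by 1.04 on the log2 scale, and the tenth such gene, AC117197.3, by 0.59. Of these 10 genes 7 matched a promoter window, and 1 held a MYB core and 1 a CRE motif.

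The members were also ordered among themselves by a stage index, the log2 ratio of 5 late genes (Pgk2, Acr, Crisp2, Aurka and Cdc25c) to 5 early ones (Sycp1, Sycp2, Sycp3, Hormad1 and Smc1b), and cut into 3 parts of like size over all libraries. The early, middle and late parts held 76, 49 and 64 WT members, 72, 103 and 99 KO members and 49, 45 and 34 KI members. The late part was 33.9% (exact 95% interval 27.2 to 41.1) of WT members, 36.1% (30.4 to 42.1) of KO members and 26.6% (19.1 to 35.1) of KI members. The early part was 40.2% (33.2 to 47.6) of WT and 26.3% (21.2 to 31.9) of KO members. These intervals cover the counting of cells in 1 library each and say nothing of the spread between mice.

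Of 3838 genes outside the index, 421 were at least 1.5-fold higher and 557 at least 1.5-fold lower in the late than in the early part in all 3 libraries. Ube2e2, a ubiquitin-conjugating enzyme, went from 223, 205 and 212 CPM in the early part to 11.5, 11.8 and 8.49 in the late part. Hpse2, a relative of heparanase, went from 220, 190 and 235 to 25.7, 20.8 and 25.2 CPM. Tex101, a surface protein of germ cells, went from 943, 815 and 688 to 209, 199 and 134 CPM. In the other direction, Ccdc178 went from 47.6, 42.9 and 28.3 to 411, 347 and 418 CPM. Prss39, a protease of the acrosome, went from 11.2, 15.7 and 6.32 to 178, 130 and 141 CPM, and Pou5f2, a POU-domain factor, from 25.6, 27.6 and 27.4 to 207, 222 and 260. These 6 genes were chosen among those past the fold in all 3 libraries, so their parallel course is no result. Piwil1 was at 1075, 901 and 971 CPM in the early and 601, 434 and 460 in the late part, and was thus higher in the earlier members.

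**Figure D2:**
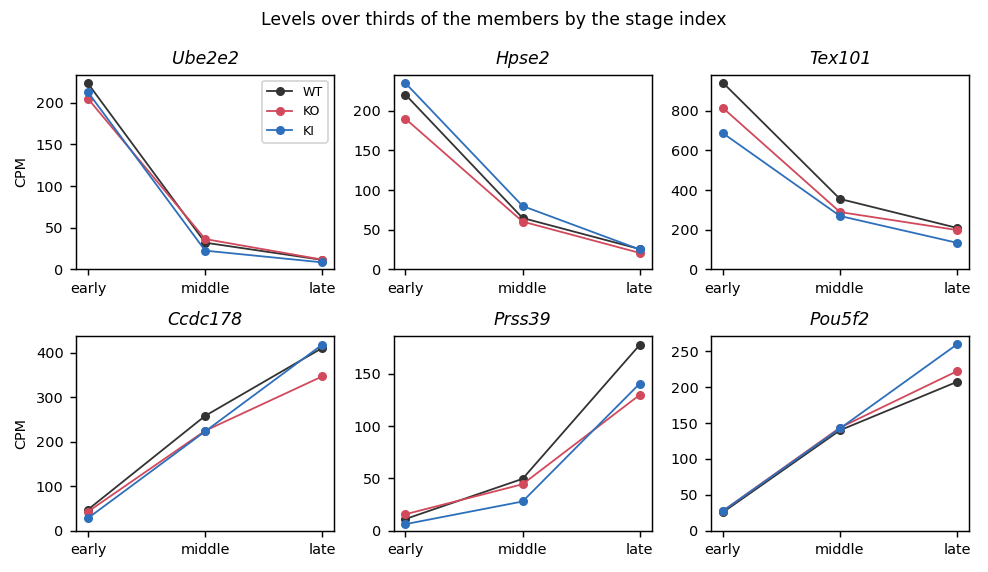
CPM (linear axis from 0) of 6 genes over the early, middle and late part of the members by the stage index, with 1 point per library (WT black, KO red, KI blue). Ube2e2, Hpse2 and Tex101 fall and Ccdc178, Prss39 and Pou5f2 climb in each library.

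The sex chromosomes were nearly silent in the members. X-linked genes gave 0.0487% of member UMIs in WT (exact 95% interval 0.0471 to 0.0505), 0.0838% in KO and 0.0297% in KI. The share was 0.128%, 0.206% and 0.261% in Dazl-high cells, 0.0645%, 0.0595% and 0.0476% in later spermatocytes and 0.916%, 1.12% and 1.12% in the spermatid gate. In 48 cells gated on the Sertoli cell genes Clu, Cst9 and Rhox8, it was 2.47%, 2.52% and 2.59%. These cells were a mixture. Leydig cell genes summed to 13740, 26754 and 18969 CPM in them, above the 6917, 4446 and 4567 of the Sertoli cell genes. The gate had no protamine limit, and elongating spermatid genes summed to 28140, 2638 and 20529 CPM. No X-linked gene reached a mean of 50 CPM in the members. The median member held 0.0237%, 0.0337% and 0.0210% of its UMIs in X-linked genes, and the median cell of the spermatid gate 0.841%, 0.963% and 0.943%.

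Few cells carried much of the X-linked signal. Members with at least 0.3% of UMIs from the X numbered 5, 15 and 2, and held 42.0%, 55.8% and 20.3% of the X-linked UMIs of all members. All 5 in WT, 12 of the 15 in KO and 1 of the 2 in KI also passed the mark of round spermatid or somatic genes given above. Without all members past that mark (7, 24 and 3) the X-linked share was 0.0282%, 0.0393% and 0.0231%. Barcodes of 200 to 500 UMIs, taken to hold free RNA, had 0.975%, 1.06% and 1.22% of their UMIs from the X. The members of KO were highest and those of KI lowest both with and without these cells, and the part of free RNA and doublets in that order was not tested. As a mean of cells, KI (0.0455%) was close to WT (0.0471%).

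**Figure D3:**
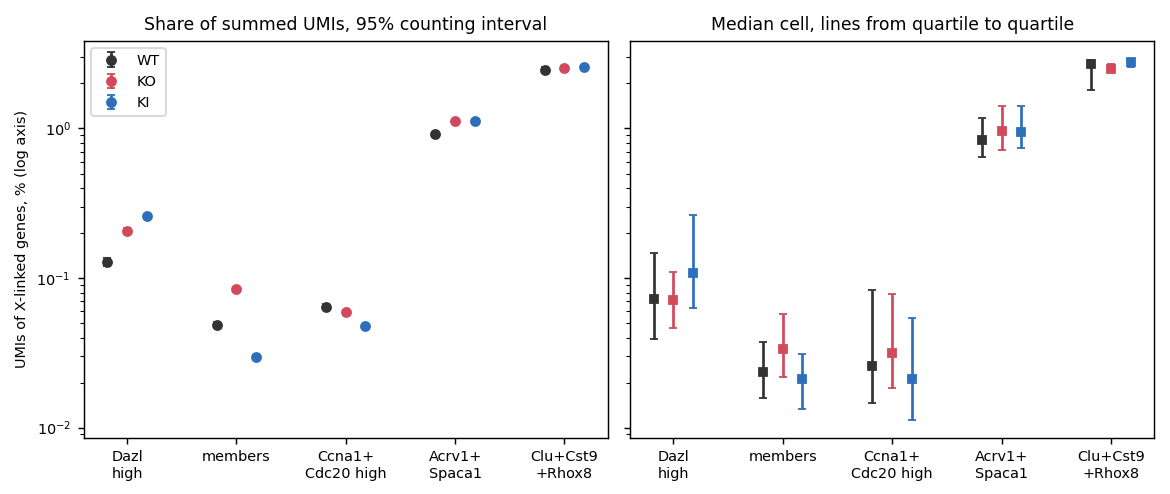
Share of UMIs from X-linked genes in percent (log axis) by gate and library (WT black, KO red, KI blue), left over summed UMIs with the exact 95% counting interval and right as the median cell with lines from the lower to the upper quartile. The members and the later spermatocytes lie lowest, under the Dazl-high cells and well under the spermatid gate.

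The X-linked genes of highest level in the members were mostly genes of spermatids. Tsga8, a nuclear protein of haploid cells, was at 34.3, 46.0 and 15.1 CPM in members and at 996, 937 and 843 in the spermatid gate. Ndufa1, a subunit of respiratory complex I, had another pattern, with 26.4, 24.3 and 25.7 CPM in members, 192, 161 and 131 in Dazl-high cells and 11.4, 13.7 and 9.25 in the spermatid gate. Tmsb4x, thymosin beta 4, was at 11.5, 40.0 and 14.6 CPM. It is also in the Sertoli cell list and, like it, was highest in KO.

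Autosomal copies were higher than the X-linked genes they stand in for. Of 18 pairs of an X-linked gene and its autosomal partner, the partner was higher in all 18 in WT and KO and in 17 in KI, where the exception was G6pdx at 0.199 CPM with G6pd2 at 0. The partner was also higher in most pairs in Dazl-high cells (17, 17 and 17), later spermatocytes (17, 18 and 16) and the spermatid gate (16, 16 and 16), and in 11, 8 and 9 pairs in the gate on Clu, Cst9 and Rhox8. Pgk1, the phosphoglycerate kinase of somatic cells, was at 3.59, 4.85 and 3.58 CPM in members, and its partner Pgk2 at 75.5, 98.5 and 68.7. Rpl39, a ribosomal protein, was at 1.40, 3.56 and 8.35 CPM and its partner Rpl39l at 971, 873 and 929. Cetn2, a centrin, was at 0.312, 0.198 and 0.298 CPM and Cetn1 at 1194, 1158 and 1248. Pdha1 of the pyruvate dehydrogenase complex was at 0.156, 0 and 0 CPM and Pdha2 at 230, 261 and 252. The partner of Pgk1, Rpl39, Cetn2 and Pdha1 was the higher gene in each genotype.

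Ddx25, the gene targeted by the study, checked the labels. WT members had 211 CPM (1355 UMIs, exact interval 200.3 to 223 CPM). The 7 UMIs of KO came to 0.693 CPM (0.279 to 1.43), and the 943 UMIs of KI to 93.7 CPM (87.8 to 99.9). The KI level was lower by 1.16 on the log2 scale, with a counting interval of -1.29 to -1.05. It was also lower in KI than in WT in Dazl-high cells (64.1 against 129 CPM) and in later spermatocytes (89.5 against 234), and 140 against 176 in the spermatid gate. How the human sequence knocked into KI maps to the mouse gene was not tested.

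Most genes of the members were at like levels in the 3 genotypes. Of the 3847 genes with a mean of at least 50 CPM, which held 87.4% of WT member UMIs, the median log2 ratio was -0.003 in KO and 0.02 in KI, and the median size of the ratio 0.109 and 0.106. At least 1.5-fold higher than WT were 4 genes in KO (0.104%) and 12 in KI (0.312%), and at least 1.5-fold lower were 16 in KO (0.416%) and 25 in KI (0.65%). Past that fold in both mutants were 1 gene on the higher side (0.026%) and 8 on the lower side (0.208%). These 8 include the gate genes Prm1 and Prm2 and the targeted gene Ddx25. Among the lower genes, Prm1 and Prm2 in KO and these with Tnp1 and Tnp2 in KI are genes that the gate used; without the genes of the gate, 14 of 3840 (0.365%) were lower in KO and 21 (0.547%) in KI. The minimum is a mean over the 3 libraries, so some lower genes were under 50 CPM in the mutant and entered through the other libraries. The counts on the lower side rest in part on this. KI was higher than KO for 13 genes (0.338%) and lower for 25 (0.65%). Of the genes past the fold, 20% were on the higher side in KO and 32.4% in KI, but 33.3% and 51.4% when the libraries were scaled by the median of gene ratios, and 39.8% and 18.1% with a minimum of 10 CPM. Under the other settings of scaling, limits and weighting, 14 to 20 of the 20 genes past the fold in KO and 28 to 37 of the 37 in KI stayed past it in the same direction. KO and KI ratios share the WT library, so no relation between them is drawn.

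**Figure D4:**
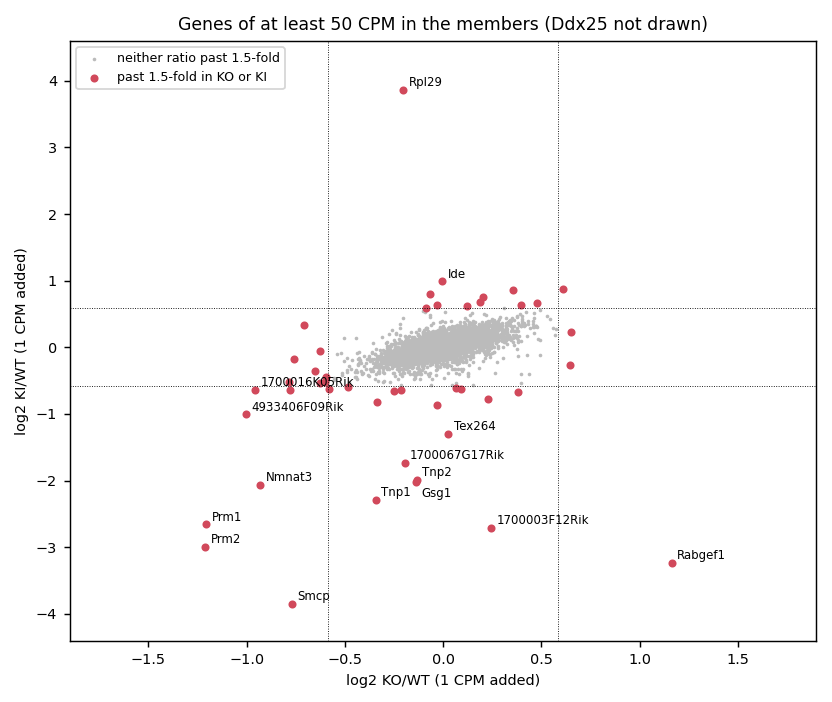
Log2 ratio to WT (1 CPM added to each level) in KO (horizontal) and KI (vertical) for the genes of at least 50 CPM in the members, with dotted lines at 1.5-fold and red points past it in either mutant. Ddx25 (-6.97 in KO, -1.16 in KI) is not drawn, most points lie near 0, and in KI Rpl29 lies far above the rest and Rabgef1 and Smcp far under it.

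Beside Ddx25, the KI library had very unlike levels of Rpl29 and Rabgef1. Rpl29, a protein of the large ribosomal subunit, was at 55.2 (WT), 47.8 (KO) and 816 (KI) CPM, a log2 ratio of 3.86 in KI (interval 3.73 to 4.04) and -0.20 in KO. Its KI ratio was 4.23 in Dazl-high cells, 3.71 in later spermatocytes and 3.41 in the spermatid gate, and the free RNA held 63.9, 62.5 and 530 CPM. Rabgef1, an exchange factor of endosomal RAB5, was at 56.9 (WT), 129 (KO) and 5.17 (KI) CPM. The KO log2 ratio was 1.16 (1.01 to 1.35) and the KI one -3.23 (-3.91 to -3.04), and it was the only gene past the fold in opposite directions. Rabgef1 ratios in KI were -1.10 in Dazl-high cells, -4.25 in later spermatocytes and -3.08 in the spermatid gate. For both genes the KI library differed along the whole course of these gates, not in the members only.

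Of the genes higher in both mutants, Tcp10c of the t-complex region alone passed the fold in both, at 76.4, 117 and 141 CPM. Its KO log2 ratio of 0.61 was under the fold in 4 of 13 other settings, at 0.52 at the lowest. Fsip2, a protein of the fibrous sheath of the sperm tail, was at 352, 496 and 517 CPM, and Tpi1, triose phosphate isomerase, at 138, 201 and 185. Nmd3, which exports the large ribosomal subunit, was at 38.7, 54.4 and 62.1 CPM, past the fold in KI only, and under it there (0.51) without the deepest barcodes. The ranking also named Cpq, Aldh9a1, Cbwd1, C2cd6b and Crtam on this side, with log2 ratios of 0.40 to 0.53 in both mutants.

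On the lower side, 4933406F09Rik was at 236, 117 and 117 CPM. Nmnat3, which makes NAD in mitochondria, was at 115, 59.9 and 26.7 CPM, and 1700016K05Rik at 102, 51.9 and 64.9. Tra2b, a splicing regulator, was at 383, 247 and 264 CPM, with log2 ratios of -0.63 and -0.53, the first under the fold (-0.58) with the stage parts weighted equally. Zdhhc4, a palmitoyl transferase, was at 76.0, 50.4 and 48.7 CPM, and 1700020N18Rik at 102, 58.8 and 65.1. In KI, 1700020N18Rik and 1700016K05Rik were under the fold when libraries were scaled by TMM or by the median of ratios, and Zdhhc4 there and as a mean of cells. These 6 genes were lower than WT in both mutants in later spermatocytes too, where 4933406F09Rik had log2 ratios of -1.50 and -1.30.

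Between the mutants, Ide, the insulin-degrading enzyme, was at 121, 121 and 241.9 CPM, and Wdfy1, an endosomal protein, at 90.0, 86.0 and 157. Ammecr1l was at 96.9, 58.9 and 122 CPM. On the other side, 1700003F12Rik was at 74.9, 88.9 and 10.6 CPM in members, but at 1806, 1693 and 1420 in the spermatid gate and 2239, 1726 and 1909 in free RNA. In the spermatid gate, Ide had a KI log2 ratio of 1.21 and Wdfy1 of 0.79, again higher than WT. Over the genes past the fold in members, the direction was kept in later spermatocytes by 4 of 4 (KO higher), 15 of 16 (KO lower), 12 of 12 (KI higher) and 24 of 25 (KI lower) genes. Of these 2, 13, 10 and 21 were past 1.5-fold there as well. In Dazl-high cells the direction was kept by 3 of 4, 10 of 16, 11 of 12 and 17 of 25, and 3, 5, 6 and 5 were past the fold. In the spermatid gate it was kept by 4, 14, 12 and 22, and 3, 8, 9 and 15 were past it. These counts include the protamine and transition protein genes, which the limits of the gates use. Those cells come from the same libraries, so they are no independent check of the genotype. The share of all genes tested that kept their direction in these gates was not counted, so the counts are a description only.

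**Figure D5:**
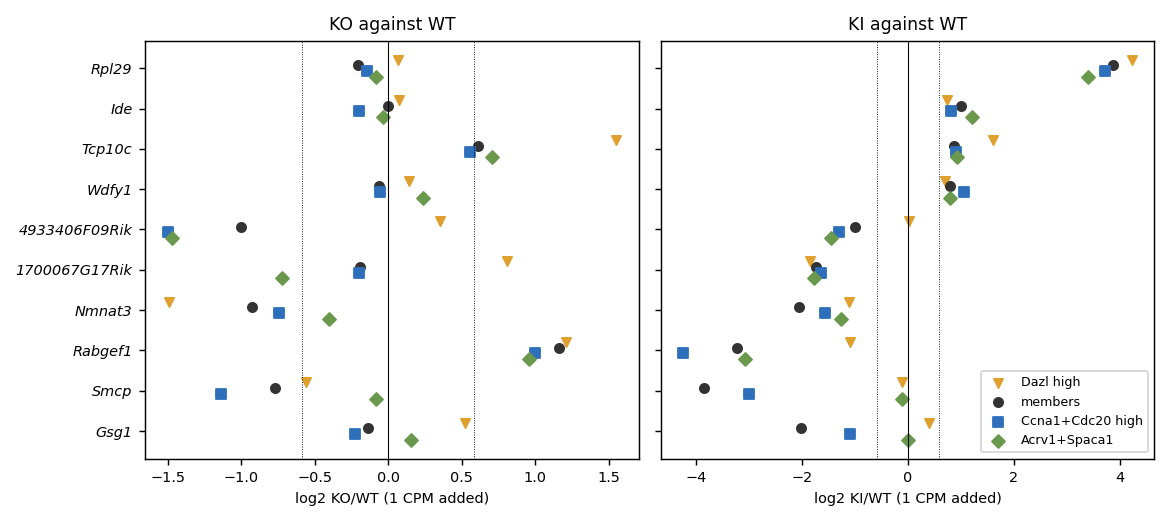
Log2 ratio of KO (left) and KI (right) to WT, 1 CPM added, for 10 genes in 4 gates, each gate with its own marker and dotted lines at 1.5-fold. Rpl29 lies far to the right and Rabgef1 to the left in KI in each gate, while Smcp and Gsg1 are near 0 in the spermatid gate.

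Genes of elongating spermatids were counted without the 4 protamine and transition protein genes, which the gate used. Of the other 12, 4 reached 50 CPM, namely Smcp, Gsg1, Ubb and Odf2. Smcp was past the fold on the lower side in both mutants and Gsg1 in KI only. The medians of the 4 were -0.06 and -0.998, against -0.003 and 0.02 over all genes. Smcp and Gsg1 lay under 50 CPM in KI and entered only through their levels in WT and KO. Their KI ratios thus rest on values that the minimum used, and nothing is read from the KI median of 4 genes. Smcp, a protein of the mitochondrial capsule of sperm, was at 109, 63.7 and 6.66 CPM in members, but at 1210, 1144 and 1113 in the spermatid gate. The median member held 24.1, 0 and 0 CPM of Smcp, and the highest member 2707, 1817 and 202. Tnp1, a transition protein whose level the gate limits, was at 107, 83.9 and 21.1 CPM. Gsg1, a partner of the testis poly(A) polymerase, was at 75.03, 68.0 and 17.7 CPM, against 922, 1028 and 926 in the spermatid gate. Odf2, an outer dense fibre protein, was at 778, 872 and 793 CPM.

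Free RNA was rich in the same genes. In barcodes of 200 to 500 UMIs, Prm1, the protamine, was at 16487, 4553 and 5873 CPM, against 264, 114 and 40.9 in members, and Smcp at 2460, 1268 and 1555. The protamine and transition protein genes made up 4.11%, 1.38% and 1.77% of free UMIs. As an alternative, free RNA was subtracted at 1.95%, 2.79% and 0.699% of member UMIs, the share at which Prm1 and Prm2 together would come from it. Both are genes of the gate, so that this share rests on values the gate limits. After it 28 genes were past the fold in KI and 18 in KO. It took out more than the members held of Smcp (10.9 of 6.66 CPM) and 1700003F12Rik (13.3 of 10.6) in KI, and of Tnp1 in WT (139 of 107) and KI (23.4 of 21.1). The same held for Tnp2 in WT (140 of 104) and KI (27.6 of 25.5) and for Prm1 in each library. Nothing is read from the ratios of these genes after it. Round spermatid genes summed to 229, 310 and 40.3 CPM in members against 6335, 6381 and 5832 in the spermatid gate, again lowest in KI. Without the genes of the gate, 5 of the 21 genes lower in KI were at least 5-fold higher in WT cells of the spermatid gate than in WT members, against 0.729% of the 3840 genes. Of the genes lower in KO this was so for 1 of 14, and of those higher in KO or KI for 0. The 5 genes lower in KI were Smcp, 1700003F12Rik, Gsg1, Cdv3 and Lkaaear1. Each lay under 50 CPM in KI and entered through WT and KO, so nothing is read from their count. The part of free RNA in these differences was not tested further.

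Counts over the lists of pachytene biology are small beside the 20 (KO) and 37 (KI) of all 3847 genes past the fold, so that a count of 0 in a short list is no result about it. Of the 15 pachytene markers other than Piwil1, 0 were past the fold in either mutant, with medians of 0.05 in KO and 0.12 in KI. The 11 synaptonemal genes had medians of -0.13 and 0.03 and 0 past the fold. With the 3 stage parts weighted equally, by an index that uses some of these genes, the KO median was 0.04. The lowest KO ratio in the list was that of 4930447C04Rik, at 61.8, 45.4 and 51.5 CPM, and Syce3, a central element protein, was at 210, 163 and 167. The 10 recombination genes had medians of 0.05 and 0.11. Psmc3ip, a partner of DMC1, was at 495, 468 and 474 CPM, and Spo11, which makes the meiotic breaks, at 127, 143 and 135. The 14 genes of sex chromosome silencing had medians of -0.09 and 0.10, with the kinase Atr at 316, 319 and 361 CPM. None of the recombination or silencing genes was past the fold.

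Of 21 genes of the piRNA pathway and chromatoid body other than Piwil1, 1 was past the fold in each mutant, and this was Ddx25, which belongs to the list. The medians were -0.03 in KO and 0.07 in KI. Mael, needed for piRNA loading, was at 642, 678 and 706 CPM, and Ddx4, another germ cell helicase, at 404, 443 and 468. Gtsf1, a helper of PIWI proteins, was at 642, 630 and 575 CPM. Mov10l1, a helicase that starts piRNA processing, was at 153, 118 and 137 CPM. Tdrd1, a Tudor protein of the germinal granule, was at 331, 284 and 312 CPM. All of these differed from WT by less than 1.5-fold.

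The 10 meiotic transcription factors had medians of -0.05 and -0.01 with none past the fold. Tcfl5, needed for pachytene transcription, was at 575, 646 and 652 CPM, Mybl1 at 120, 117 and 127, and Crem at 188, 218 and 201. The largest difference in this list was that of Zfp541, a chromatin factor of pachytene progression, at 167, 130 and 135 CPM. The 11 genes of meiotic division other than those of the gate had medians of 0.11 and 0.11, and Cks2, a partner of cyclin-dependent kinases, was at 712, 798 and 798 CPM.

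The 17 chaperones had medians of 0.17 and 0.18, against -0.003 and 0.02 over all genes tested. None of the 17 was past the fold in either mutant, and both ratios share the WT library. Hspa2, the chaperone that spermatocytes need for desynapsis, was at 1347, 1539 and 1524 CPM, and Hsp90b1 of the endoplasmic reticulum at 568, 677 and 699. The 8 genes of ER stress and apoptosis had medians of 0.02 and 0.04. Among them Ddit3 (CHOP) was at 172, 139 and 121 CPM. The 65 axoneme genes had medians of 0.09 and 0.11 and the 29 proteasome genes of 0.13 and 0.08, with none past the fold. Dnah8, a dynein heavy chain of the tail, was at 1935, 2019 and 2297 CPM, and Psma8, the testis subunit of the core proteasome, at 374, 367 and 431.

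Of 33 acrosome genes, 12 reached 50 CPM, with medians of 0.00 and -0.03. With a minimum of 10 CPM, 22 entered and the KI median was -0.50, with 10 genes past the fold on the lower side, against 3.57% of the 7880 genes of that minimum, whose median was -0.008. Spermatid genes moved with them: Spaca1, of the acrosome, was at 19.8, 31.7 and 4.57 CPM and Acrv1 at 8.74, 20.7 and 1.79, and the round spermatid list was lowest in KI as given above. Spaca1 and Acrv1 lay under 10 CPM in KI and met that minimum only through the other libraries. The minimum is a mean over the 3 libraries, so nothing is read from the KI median or count at 10 CPM. The part of spermatid genes in this was not tested. The remaining lists are given at 50 CPM. Glycolysis genes (14) had medians of 0.08 and 0.05, initiation factors (31) of 0.03 and 0.02, histones and their readers (13) of -0.08 and 0.08, and calmodulin and its targets (7) of -0.08 and -0.03. The 76 ribosomal protein genes had medians of -0.13 and -0.06, and Rpl29 was the 1 past the fold. Of the nuclear RNAs, Malat1 was at 473, 491 and 498 CPM and Kcnq1ot1, past the fold in KI, at 69.7, 92.1 and 109. The KI ratio of Kcnq1ot1 was just under the fold (0.58) without members that held genes of other cell types. The mitochondrial genes (11), whose sum the gate limits, had medians of 0.20 and 0.16. Immediate early genes, a sign of stress in dissociation, summed to 24.0, 20.7 and 22.9 CPM.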

How the data were processed

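Testicular cells of WT, KO and KI mice were digested with enzymes, strained and captured on a 10x Genomics controller. The authors aligned the reads to mm10 and deposited UMI counts per gene and barcode for all 6794880 barcodes of the design, whole numbers that are not normalized and not filtered for cells. The submitters' processing notes name Cell Ranger 2.1.1, whereas the file headers name Cell Ranger 4. Library totals were 82973909 (WT), 91388296 (KO) and 73150373 (KI) UMIs.

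Members and lists were chosen with earlier results of these data known. UMIs were summed over members and scaled to CPM with Python 3.11.15, numpy 2.4.6, scipy 1.17.1 and pandas 2.3.3. Figures were drawn with matplotlib 3.10.9. Of 31053 genes, 30934 matched GENCODE M21 by ID. Ratios were log2 with 1 CPM added, and intervals (Poisson, Clopper-Pearson, conditional binomial) were exact for the counts before that addition. Genes with a mean of at least 50 CPM entered the fold counts, and 1.5-fold was the limit. The mean was taken over the 3 libraries, so a gene low in 1 library could enter through the others. The code was tested on simulated data.

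The text names the genes of the gate and Ddx25, the 20 highest genes, the 10 highest and 10 lowest in both mutants, the 5 most unlike between mutants each way, list genes of at least 200 CPM or past the fold, X-linked pairs and the 10 genes highest in the members. A gene that this rule names is not reported here. Further genes of the lists, of the stage parts and of the checks on other cell types were chosen after their values were seen.

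Alternatives varied the UMI minimum, the Piwil1 and protamine limits, scaling, CPM minimum and addition, weighting of cells and of the 3 stage parts, the deepest barcodes and free RNA. Removal of members with genes of other cell types and the free RNA of 200 to 500 UMI barcodes were added after seeing the data.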

Additional observations from a re-analysis of the deposited data

Results flagged for a closer look

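Rabgef1, the exchange factor of RAB5, moved past 1.5-fold in opposite directions in KO and KI. It was at 56.9 (WT), 129 (KO) and 5.17 (KI) CPM in the members, and the log2 ratio of KI to WT less that of KO to WT was -4.39. The difference was not tested, since each genotype is 1 library. Later spermatocytes of the same libraries held 80.8, 162 and 3.31 CPM and the spermatid gate 77.6, 152 and 8.30, in the same order.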

How the results depend on the processing

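The results were recomputed under 14 settings besides the one reported. With a UMI minimum of 12000 the members were 13.2% of WT and 20.7% of KO barcodes, and with 5000 they were 6.47% and 14.7%. With a minimum of 10 CPM, 123 genes were past 1.5-fold in KO (49 higher, 74 lower) and 343 in KI (62 higher, 281 lower); under the other settings these were 17 to 21 and 28 to 38, but not always the same genes: of the 20 and 37, 14 KO genes stayed past the fold as a mean of cells, and 28 KI genes without members that held genes of other cell types. Higher genes were 7 in KO and 19 in KI with scaling by the median of ratios, against 4 and 12. The X-linked share was 0.0448%, 0.0573% and 0.0285% in WT, KO and KI with a Piwil1 minimum of 0.02%. It was 0.0282%, 0.0393% and 0.0231% without members that held genes of other cell types, and 0.0315%, 0.0562% and 0.0230% with free RNA of 200 to 500 UMI barcodes subtracted at a share set by Prm1 and Prm2, genes of the gate. Without the deepest 5% of barcodes it was 0.0416% in WT and 0.0594% in KO. As a mean of cells it was 0.0777% in KO and 0.0455% in KI, and with free RNA of 10 to 100 UMI barcodes subtracted 0.0796% and 0.0244%. With 12000 UMIs it was 0.0815% in KO. The cause was not tested. KO stayed highest and KI lowest under each, with KI nearest to WT (0.0471%) as a mean of cells. Among 598 gene ratios and 40 list medians, a change of sign was checked only for values past 1.5-fold in the reported setting. Of these 0 changed sign, but a value that became 0 was not counted as a change. With free RNA of 200 to 500 UMI barcodes subtracted, the KO and KI ratios of Prm1 became 0. The KI ratios of Tnp1 and Tnp2 became 0 there as well. Smaller values could change sign: the KO median of the synaptonemal genes went from -0.13 to 0.04 with the stage parts weighted equally. Of the 40 medians, 8 moved by 0.1 or more under some setting. The median of the elongating spermatid list, protamine genes of the gate included, moved most, to -1.12 in KO and -6.78 in KI with free RNA of 10 to 100 UMI barcodes subtracted, a correction that rests on 0 to 3 haemoglobin UMIs in the members. No paired analysis was possible because each genotype has 1 library and nothing was tested.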

Other observations

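Chromosome 9, which holds Ddx25, had 231 of the 3847 genes tested (6.00%) and 9 of the 37 genes past 1.5-fold in KI members, Ddx25 itself among them. In KO it had 4 of 20, again with Ddx25. A stretch of it from 102.5 to 108 Mb in mm10, chosen after the values were seen, held 17 genes tested and 5 past the fold in KI. These were Rpl29 on the higher side and Cdv3, Mrpl3, Gpr62 and Tex264 on the lower side. The stretch is not next to Ddx25: the 5 genes lay 67.8 (Cdv3) to 71.1 Mb (Tex264) from it. In the order WT, KO, KI, Cdv3 was at 78.0, 76.4 and 42.2 CPM, Gpr62 at 95.8, 125 and 59.9, Tex264 at 90.5, 92.2 and 36.3 and Mrpl3, a mitochondrial ribosomal protein, at 58.5, 61.2 and 38.0. In the spermatid gate Tex264 was higher in KI than in WT, at 64.3, 102 and 88.4 CPM, while Cdv3, Gpr62 and Mrpl3 were lower in KI there too. Cdv3 was at 780, 691 and 573 CPM in that gate and at 1016, 715 and 755 in free RNA. Over the 17 genes the KI ratios had a median of -0.04 and the KO ratios of -0.06 on the log2 scale.

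Cdh2, the N-cadherin of contacts between germ cells and Sertoli cells, was at 247 (WT), 325 (KO) and 188 (KI) CPM in members. Its log2 ratio of KI to KO was -0.79 in members and -1.06 in later spermatocytes. Ammecr1l had a ratio of KI to KO of 1.04 in members and 2.32 in the spermatid gate.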
